A study of Homo sapiens with 10 samples.

Results

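The 53BP1-shieldin and end joining genes are 10 genes chosen by name from the count table: TP53BP1 and RIF1, the 4 shieldin subunit genes SHLD1, SHLD2, SHLD3 and MAD2L2, and the end joining genes PRKDC, XRCC4, LIG4 and NHEJ1. All 10 were found among the 62700 genes of the table, and all 10 passed the filter on low counts that left 18979 genes for testing. They were picked by name and role, with earlier results of these data known. Polyadenylated RNA was sequenced from 5 libraries of CCAR1 knockout cells and 5 libraries of parental control cells. Both are RPE p53-/- cells, a human line from retinal pigment epithelium that lacks p53, grown in the same DMEM/F12 medium with fetal bovine serum. The series title names CCAR1 as a splicing factor that acts on the Fanconi anemia/BRCA pathway. The genes described here serve end joining, a repair route that competes with BRCA1-dependent homologous recombination, though not all of them act only there. The labels do not say whether the knockout cells are 1 clone or whether the libraries of a genotype are separate cultures, so the p-values measure the spread between these libraries.

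53BP1 binds chromatin beside DNA breaks and recruits RIF1, which brings in shieldin, a complex of SHLD1, SHLD2, SHLD3 and REV7 (the product of MAD2L2). Shieldin limits the trimming of break ends and so favours end joining over BRCA1-dependent homologous recombination, and in BRCA1-deficient cells loss of 53BP1 or shieldin restores resistance to PARP inhibitors. In classical end joining, Ku and the kinase DNA-PKcs (PRKDC) hold the ends, and XRCC4, XLF (NHEJ1) and DNA ligase IV (LIG4) seal them.

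Replicates 1 to 3 of each genotype held totals of 52.6 to 65.2 M counts (M, 1e6) and are called shallow here, and replicates 4 and 5 held 320.6 to 385.4 M and are called deep. The shallow libraries also held skeletal muscle transcripts: 9 of 10 listed muscle genes were found and summed to 259 to 540.1 CPM (counts per 1e6 of the scaled library total) in shallow knockout and 403 to 571 CPM in shallow parental libraries, against 24.4 to 24.6 CPM in deep knockout and 10.3 to 10.5 CPM in deep parental libraries. Liver and erythroid genes were likewise higher in the shallow libraries, and the part of these transcripts in the results was not tested. CCAR1 itself averaged 105.5 ± 18.5 CPM in knockout and 147.7 ± 23.5 CPM in parental libraries (SD, n = 5 each), a log2 fold change of -0.48 ± 0.14 (SE) with an adjusted p of 0.0201 by edgeR's quasi-likelihood test. Its ranges met, at 88.5 to 126 CPM in knockout and 125 to 173 CPM in parental libraries, and without parental replicate 5 the edgeR adjusted p was 0.0504. Fitted within each depth, CCAR1 was at -0.51 in shallow libraries (edgeR adjusted p = 1.19e-06) and -0.48 in deep ones (3.97e-11). These fits called 52.7% and 57.0% of all genes. Of 10 retinal pigment epithelium markers, 6 (RPE65, RLBP1, TYR, TYRP1, DCT and PMEL) stayed under 1 CPM in every library, while MITF ran from 30.9 to 47.1 CPM and OTX2 from 10.1 to 18.3 CPM. Of 6 epithelial and adhesion markers, CDH1 and EPCAM stayed under 1 CPM, and KRT8 ran from 118 to 219 CPM. KRT18 ran from 162 to 249 CPM, CDH2 from 127 to 209.5 CPM and VIM from 8909 to 11458 CPM.

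The start regions of 4 of the genes are shown because the results below turn on them: TP53BP1, RIF1 and LIG4 had lower RNA in the knockout libraries at both depths, and XRCC4 overlapped in the shallow ones. They are RefSeq sequences of GRCh38.p14 covering 250 bases before to 50 after each gene's start, on the gene's strand, and 7 of the 10 genes matched an entry. LIG4 had 5 entries, and the one nearest its annotated start was used. TP53BP1 is chr15:43510591-43510890 on the minus strand, RIF1 is chr2:151409652-151409951 on the plus strand, LIG4 is chr13:108218300-108218599 on the minus strand and XRCC4 is chr5:83077297-83077596 on the plus strand. Capitals mark motif matches on either strand.
TP53BP1: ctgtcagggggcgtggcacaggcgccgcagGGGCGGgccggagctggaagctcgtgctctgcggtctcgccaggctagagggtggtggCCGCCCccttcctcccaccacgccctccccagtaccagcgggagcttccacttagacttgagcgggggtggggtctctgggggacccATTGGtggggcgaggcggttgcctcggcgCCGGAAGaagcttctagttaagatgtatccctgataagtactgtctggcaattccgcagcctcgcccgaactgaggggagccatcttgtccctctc
RIF1: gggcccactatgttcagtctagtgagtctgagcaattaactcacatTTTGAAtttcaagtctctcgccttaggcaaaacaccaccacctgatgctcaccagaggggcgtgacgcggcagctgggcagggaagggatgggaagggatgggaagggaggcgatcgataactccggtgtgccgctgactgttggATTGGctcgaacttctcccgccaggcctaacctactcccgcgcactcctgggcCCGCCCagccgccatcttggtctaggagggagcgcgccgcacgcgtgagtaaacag
LIG4: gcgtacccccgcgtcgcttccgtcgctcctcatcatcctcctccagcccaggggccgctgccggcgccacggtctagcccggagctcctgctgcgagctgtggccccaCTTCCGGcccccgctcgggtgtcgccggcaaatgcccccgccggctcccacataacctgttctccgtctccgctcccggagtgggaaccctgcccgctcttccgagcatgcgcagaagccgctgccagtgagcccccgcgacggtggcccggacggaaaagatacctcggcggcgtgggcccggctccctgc
XRCC4: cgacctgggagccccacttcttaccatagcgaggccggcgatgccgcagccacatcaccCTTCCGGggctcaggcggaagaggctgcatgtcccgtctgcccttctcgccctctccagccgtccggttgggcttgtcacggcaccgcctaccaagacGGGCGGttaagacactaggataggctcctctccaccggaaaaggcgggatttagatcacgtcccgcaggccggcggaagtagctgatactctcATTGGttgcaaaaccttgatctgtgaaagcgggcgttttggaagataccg

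The letters searched, on both strands, were GGGCGG (a GC box of the SP1 type), CCAAT (bound by NF-Y), CCGGAAG (an ETS core), TTTGAA (the cell cycle element CHR), CACGTG (an E-box), TATAAA, and the E2F forms TTTCCCGC, TTTGGCGC, TTTCGCGC and TTTGCCGC. No marked match overlaps another in these 4 windows. TP53BP1 held 2 GC boxes, 220 and 162 bases before its start, a CCAAT box 75 bases before it and an ETS core 46 bases before it. RIF1 held a GC box 6, a CCAAT box 59 and a CHR element 204 bases before its start. The only match in the LIG4 window used was an ETS core 142 bases before its start, and its other entries are not described. XRCC4 had an ETS core 191 and a GC box 93 bases before its start, with a CCAAT box at the start itself. Among 35116 promoters of the same length, 45.0% held a GC box, 34.6% a CCAAT box, 15.2% a CHR element and 10.3% an ETS core. None of the 4 windows held the E2F (3.31% of promoters), E-box (7.26%) or TATA (11.5%) letters. The matches do not part the 3 lower genes from XRCC4.

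TP53BP1, LIG4 and SHLD1 were the members that passed the test over all 10 libraries. TP53BP1 and LIG4 RNA fell to 69.6% and 63.4% of the parental mean, and SHLD1 RNA rose to 148% of it. The other 7 did not pass, with log2 fold changes of -0.52 for SHLD2 to -0.04 for MAD2L2. The test was edgeR's quasi-likelihood test on rounded counts with Benjamini-Hochberg adjustment over all genes and a threshold of 0.05, and it called 36.6% of all 18979 genes (16.9% lower and 19.7% higher). The 3 of 10 members called are therefore close to the share of all genes called. The median log2 fold change of the 10 genes was -0.25, beside 0.02 over all genes tested.

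Same-numbered libraries of the 2 genotypes deviated together, though no more than other numbers of the same depth did. The replicate number was also fitted as a block. With the block, TP53BP1, RIF1, SHLD2, SHLD3, LIG4 and NHEJ1 fell and SHLD1 rose, 7 of 10, where 61.2% of all genes were called (30.1% lower, 31.1% higher). The numbers follow the shallow and deep split, so fits within each depth are given beside each gene. Among the shallow libraries by themselves, SHLD1 rose and 5 members fell, where 52.7% of genes were called (26.2% lower, 26.5% higher). Among the deep ones, SHLD1 rose and 8 members fell, PRKDC being the exception, where 57.0% of 26859 genes were called (28.1% lower, 28.9% higher). A fit of all libraries with depth class as a term called 8 of the 10 (64.0% of genes). Removing the median change of each gene's chromosome left 2 called, TP53BP1 and SHLD1 (33.5% of genes), or 7 when depth class was a term as well (61.8% of genes).

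**Figure D1:**
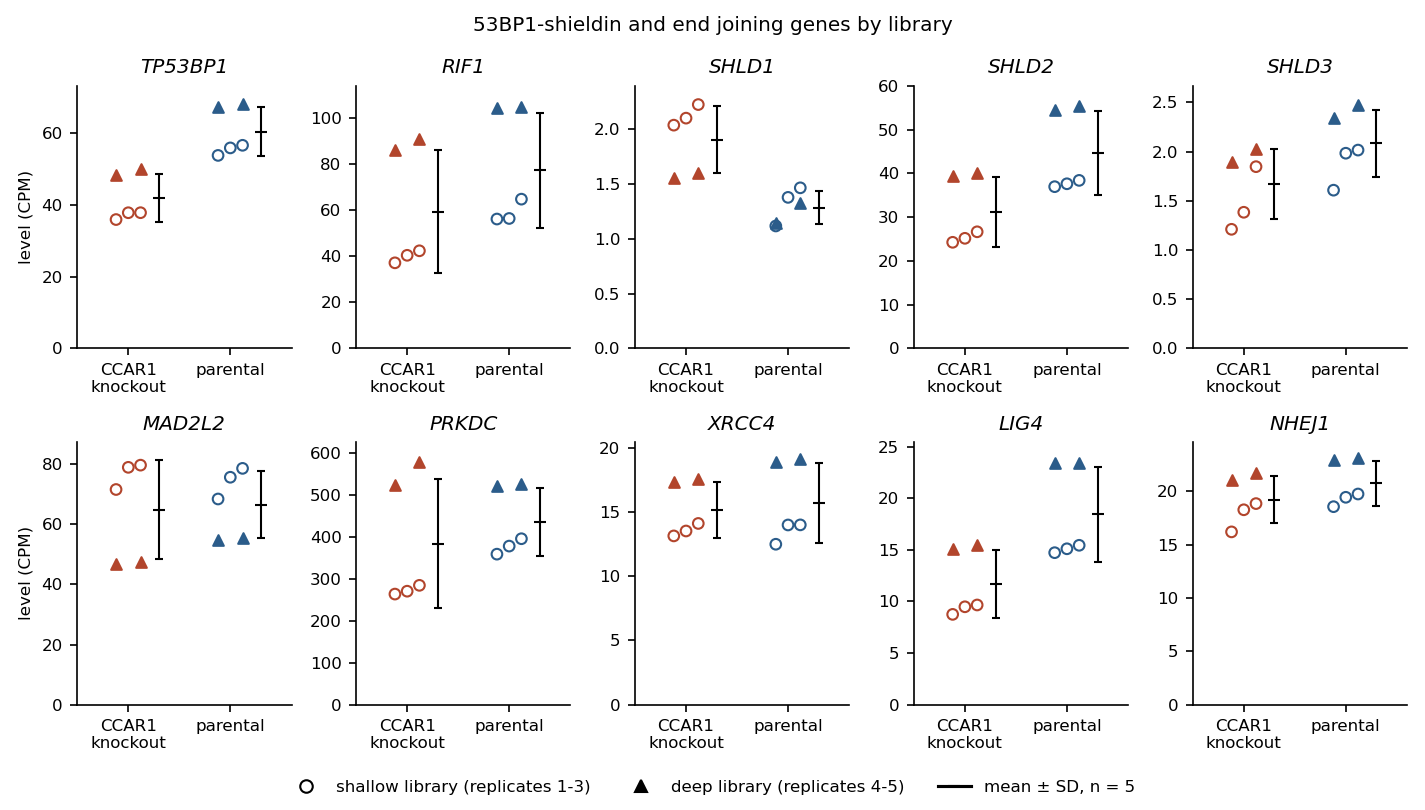
Level of each of the 10 genes in CPM by library, CCAR1 knockout on the left and parental on the right of each panel, with open circles for shallow and triangles for deep libraries and the bar showing mean ± SD (n = 5). TP53BP1 and SHLD1 are the genes whose knockout and parental libraries do not overlap, and the shallow and deep libraries stand apart in most panels.

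TP53BP1 (ENSG00000067369.14, chr15:43403061-43510728, minus strand) encodes 53BP1. It had 37.8, 35.9, 37.8, 48.5 and 49.98 CPM in knockout replicates 1 to 5, against 53.8, 55.9, 56.7, 68.1 and 67.5 CPM in parental replicates 1 to 5. Every knockout library lay below every parental one, which 30.6% of all genes also showed in either direction. The log2 fold change was -0.52 ± 0.12 (SE, 95% interval -0.79 to -0.26), with an edgeR adjusted p of 0.00569 and an exact two-sided permutation p of 0.00794, the smallest that 252 arrangements allow. The fall was -0.58 at shallow and -0.48 at deep depth. In each of the 24 alternative fits it stayed lower and past the threshold, and neighbouring coding genes within 5 Mb had a median log2 fold change of -0.06 (n = 93). TP53BP1 overlaps TUBGCP4 by the annotation, so reads in the overlap may be shared.

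RIF1 (ENSG00000080345.18, chr2:151409883-151508013, plus strand) is recruited by 53BP1 and in turn recruits shieldin. In shallow libraries it had 42.4, 40.5 and 37.2 CPM in the knockout, against 56.5, 64.9 and 56.2 CPM in parental cells. In deep libraries it had 86.4 and 91.1 CPM in the knockout, against 105 and 104 CPM in parental cells. The knockout was lower in 5 of 5 same-numbered pairs and the ranges were apart within each depth, but over all 10 libraries they overlapped. The pooled log2 fold change of -0.38 ± 0.32 (SE) did not pass (edgeR adjusted p = 0.402), whereas with the replicate block it was -0.43 ± 0.07 (edgeR adjusted p = 0.000389). It was -0.57 in shallow and -0.26 in deep libraries, and the test of that difference did not pass (0.33, 95% interval 0.13 to 0.53, edgeR adjusted p = 0.111). RIF1 overlaps NEB, which encodes the muscle protein nebulin and ran from 9.91 to 37.9 CPM in shallow and from 0.606 to 1.24 CPM in deep libraries, and without strand information reads in the overlap cannot be told apart.

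The most abundant shieldin subunit per kilobase of transcript was MAD2L2, at 34.9 CPM per kb in knockout and 35.8 CPM per kb in parental libraries. SHLD2 followed with 8.62 CPM per kb in knockout and 12.4 CPM per kb in parental libraries. SHLD1 had 1.65 and SHLD3 0.947 CPM per kb in knockout libraries, with ranges that did not meet. In parental libraries SHLD3 had 1.18 and SHLD1 1.11 CPM per kb, with ranges that overlapped. Levels per kb use the longest coding transcript of each gene. SHLD1 and SHLD3 rest on few reads, from 71 and 65 counts in the lowest shallow library to 540 and 937 in the highest deep one.

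SHLD1 (ENSG00000171984.15, chr20:5750393-5863912, plus strand) is the small subunit that joins shieldin through SHLD2. It had 2.10, 2.04, 2.23, 1.56 and 1.61 CPM in knockout replicates 1 to 5, against 1.12, 1.47, 1.38, 1.14 and 1.32 CPM in parental replicates 1 to 5. Every knockout library lay above every parental one, and it was the only member that rose in this test. The log2 fold change was 0.57 ± 0.14 (SE, 95% interval 0.26 to 0.87), with an edgeR adjusted p of 0.00833 and an exact two-sided permutation p of 0.00794. The rise was 0.68 in shallow and 0.35 in deep libraries, a difference that did not pass its test (-0.33, 95% interval -0.75 to 0.09, edgeR adjusted p = 0.418). The call held in each of the 24 alternative fits. Coding genes within 5 Mb of SHLD1 had a median log2 fold change of 0.17 (n = 64), and those of chromosome 20 one of 0.08.

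SHLD2 (ENSG00000122376.12, chr10:87094161-87191468, plus strand) is the subunit that binds single-stranded DNA. In shallow libraries it had 26.7, 25.2 and 24.3 CPM in the knockout, against 37.6, 37.0 and 38.4 CPM in parental cells. In deep libraries it had 39.4 and 40.2 CPM in the knockout, against 55.5 and 54.6 CPM in parental cells. The deep knockout libraries reached above the shallow parental ones, so the ranges overlapped over all 10 libraries and were apart within each depth. The pooled log2 fold change of -0.52 ± 0.19 (SE) just missed the threshold (edgeR adjusted p = 0.0584), and with the replicate block it was -0.53 ± 0.04 (edgeR adjusted p = 2.93e-06). DESeq2 called it (adjusted p = 0.0169), and edgeR did so when parental replicate 2 (0.0499) or knockout replicate 4 (0.0325) or 5 (0.0290) was left out. Coding genes on chromosome 10 had a median log2 fold change of -0.18, and with that median removed SHLD2 was at -0.34 (edgeR adjusted p = 0.212), or -0.35 with depth also a term (edgeR adjusted p = 1.32e-06). The 3 pseudogene copies of SHLD2 held at most 31.6 counts in any library.

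SHLD3 (ENSG00000253251.3, chr5:65624765-65630891, plus strand) links shieldin to RIF1 and REV7. It had 1.21, 1.85, 1.38, 2.03 and 1.89 CPM in knockout replicates 1 to 5, against 1.98, 1.61, 2.02, 2.48 and 2.34 CPM in parental replicates 1 to 5. The knockout was lower in 4 of 5 pairs, replicate 2 being the exception, and the ranges overlapped. The pooled log2 fold change of -0.32 ± 0.17 (SE) did not pass (edgeR adjusted p = 0.187), and the block gave -0.32 ± 0.12 (edgeR adjusted p = 0.0451). SHLD3 overlaps TRIM23 and TRAPPC13, whose log2 fold changes were -0.0017 and -0.03 and did not pass, so reads of these genes may be shared.

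MAD2L2 (ENSG00000116670.16, chr1:11674480-11691650, minus strand) encodes REV7, which also serves translesion polymerase zeta. In shallow libraries it had 71.7, 79.0 and 79.8 CPM in the knockout, against 78.7, 68.5 and 75.7 CPM in parental cells. In deep libraries it had 47.4 and 47.0 CPM in the knockout, against 54.8 and 55.4 CPM in parental cells. The shallow ranges overlapped and the deep ones did not, and in deep libraries, with 2 a genotype, 84.9% of all genes had ranges apart. The pooled log2 fold change of -0.04 (95% interval -0.45 to 0.37) did not pass (edgeR adjusted p = 0.912), and the deep libraries alone gave -0.24 ± 0.02 (edgeR adjusted p = 2.9e-07). The difference between depths did not pass its test (-0.27, 95% interval -0.45 to -0.09, edgeR adjusted p = 0.133).

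**Figure D2:**
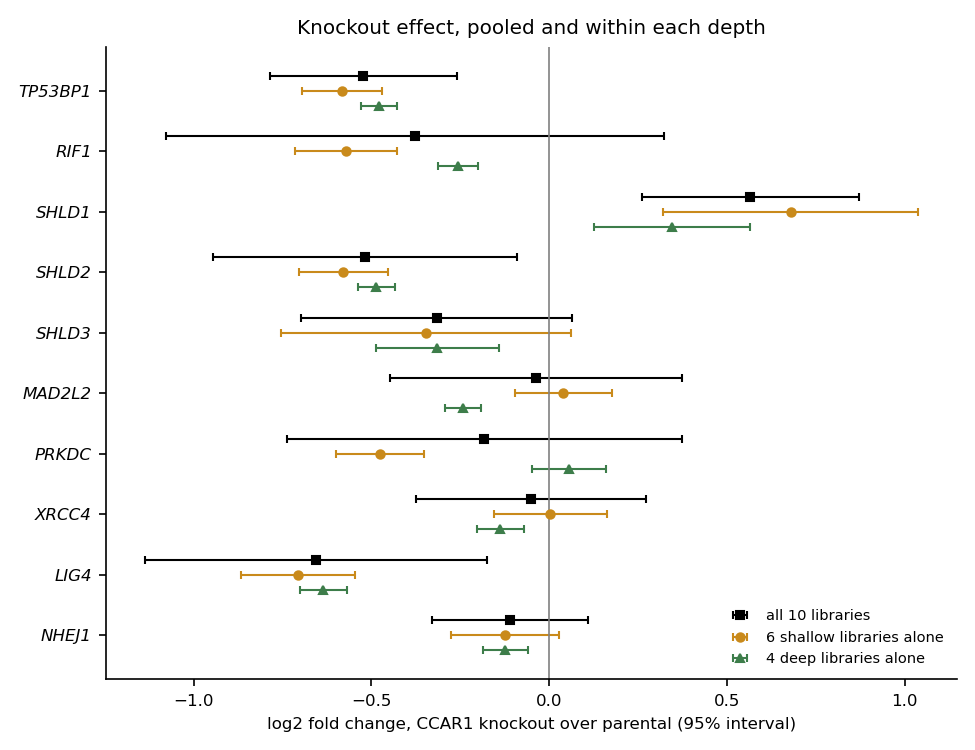
Log2 fold change of CCAR1 knockout over parental libraries with its 95% interval for each of the 10 genes, from all 10 libraries (squares), the 6 shallow libraries alone (circles) and the 4 deep libraries alone (triangles). The intervals of TP53BP1, SHLD2 and LIG4 lie below 0 and that of SHLD1 above 0 in all 3 fits, while PRKDC is at -0.48 for shallow and 0.06 for deep libraries.

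The 4 end joining genes gave different values. LIG4 was lower at both depths, PRKDC was lower in the shallow and not in the deep libraries, and NHEJ1 and XRCC4 differed by little. LIG4 (ENSG00000174405.15, chr13:108207439-108218368, minus strand) encodes DNA ligase IV. It had 9.66, 9.48, 8.75, 15.1 and 15.5 CPM in knockout replicates 1 to 5, against 15.1, 14.7, 15.5, 23.4 and 23.5 CPM in parental replicates 1 to 5. Within each depth every knockout library was lower, and over all 10 the deep knockout libraries met the shallow parental ones. The log2 fold change was -0.66 ± 0.22 (SE, 95% interval -1.14 to -0.17) with an edgeR adjusted p of 0.0367, and -0.66 ± 0.05 with the block (edgeR adjusted p = 1.22e-06).

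The pooled LIG4 call depended on which libraries were kept. It held without knockout replicate 4 (edgeR adjusted p = 0.0230) or 5 (0.0192) and without parental replicate 1, 2 or 3. LIG4 was also called in shallow (edgeR adjusted p = 1.62e-06) and deep libraries alone (7.15e-11). Leaving out 1 of knockout replicates 1, 2 or 3 gave edgeR adjusted p values of 0.0787, 0.0778 and 0.0744, and leaving out parental replicate 4 or 5 gave 0.0855 and 0.0880. Chromosome 13 coding genes had a median log2 fold change of -0.41 (n = 226), the lowest of any chromosome, and the 19 coding genes within 5 Mb of LIG4 had a median of -0.30. With the chromosome median removed LIG4 stood at -0.24 ± 0.22 (edgeR adjusted p = 0.447), and with depth also a term at -0.25 ± 0.04 (edgeR adjusted p = 0.000102). Whether DNA copy number differs between the cells was not tested.

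PRKDC (ENSG00000253729.9, chromosome 8, minus strand) encodes DNA-PKcs, the kinase that Ku brings to the break. In shallow libraries it had 284, 270.3 and 263 CPM in the knockout, against 378, 396 and 359 CPM in parental cells. In deep libraries it had 523 and 578 CPM in the knockout, against 527 and 520.3 CPM in parental cells. The shallow ranges were apart, as for 59.6% of all genes, and the deep ranges overlapped. The log2 fold change was -0.48 (95% interval -0.60 to -0.35) in shallow and 0.06 (-0.05 to 0.16) in deep libraries. The difference of 0.54 (95% interval 0.37 to 0.71) passed its own test (edgeR adjusted p = 0.0163), which 0.601% of all genes did and no other member. Over all 10 libraries PRKDC did not pass (-0.18 ± 0.25, edgeR adjusted p = 0.631), nor did it with the block (-0.25 ± 0.10, edgeR adjusted p = 0.0529). With depth class as a term it did (-0.25 ± 0.09, edgeR adjusted p = 0.0288).

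XRCC4 (ENSG00000152422.16, chr5:83077498-83353787, plus strand) is the scaffold that carries LIG4. It had 13.6, 14.1, 13.2, 17.6 and 17.4 CPM in knockout replicates 1 to 5, against 12.5, 14.0, 14.0, 18.9 and 19.2 CPM in parental replicates 1 to 5. The shallow ranges overlapped and the deep knockout libraries were slightly lower. The pooled log2 fold change was -0.05 (95% interval -0.37 to 0.27, edgeR adjusted p = 0.835). It was 0.0034 in shallow libraries and -0.14 ± 0.03 in deep ones (edgeR adjusted p = 0.00142).

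NHEJ1 (ENSG00000187736.14, chr2:219075317-219160865, minus strand) encodes XLF, which aligns the ends beside XRCC4. It had 18.8, 18.3, 16.2, 21.0 and 21.7 CPM in knockout replicates 1 to 5, against 19.4, 19.7, 18.5, 23.1 and 22.9 CPM in parental replicates 1 to 5. The knockout library was the lower of every pair, by little. The log2 fold change of -0.11 ± 0.10 (SE) did not pass (edgeR adjusted p = 0.436), and with the block it was -0.11 ± 0.04 (edgeR adjusted p = 0.0306). The pooled fit recovered 2% of genes changed 1.2-fold in simulated counts of the same libraries. Far fewer genes were changed there than the 36.6% called in these data, so recovery here may differ.

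Within each depth, the ranges of TP53BP1, RIF1, SHLD1, SHLD2 and LIG4 were apart in the same direction at both depths, as were those of 53.9% of all genes. For these 5, the exact two-sided permutation test within depth gave p = 0.0167, the smallest that 120 arrangements allow. SHLD3 and NHEJ1 had an exact permutation p of 0.0333, PRKDC of 0.0833, and MAD2L2 and XRCC4 of 0.4. These p-values were not adjusted over the 10 genes.

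The members also differed between the depth classes. RIF1 was 0.99 higher on the log2 scale in deep than in shallow libraries, PRKDC 0.75, LIG4 0.67 and SHLD2 0.60, whereas SHLD1 was at -0.27 and MAD2L2 at -0.57. The members at the top have transcripts of 15.0 kb (RIF1) and 13.5 kb (PRKDC), and those below 0 have 1.15 kb (SHLD1) and 1.86 kb (MAD2L2). The members did not follow length throughout: XRCC4 (1.70 kb) was at 0.43 and SHLD3 (1.77 kb) at 0.39, above TP53BP1 (10.4 kb) at 0.35. Among all coding genes tested, the median deep over shallow difference was -0.35 for transcripts under 2 kb (n = 3016), -0.02 at 2 to 5 kb (n = 7168), 0.28 at 5 to 10 kb (n = 3222) and 0.42 from 10 kb (n = 593). TP53BP1 and MAD2L2 lay below the medians of their length classes, and the other members above theirs. The knockout effect in deep minus shallow libraries rose with length too, with medians of -0.16, -0.05, 0.06 and 0.17 in these classes. PRKDC at 0.54 lay above the 90th percentile of 0.45 of the longest class, and RIF1 at 0.33 and TP53BP1 at 0.11 lay within its 10th to 90th percentile range of -0.12 to 0.45. Of the 593 longest genes, 42 passed the test of the difference between depths.

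**Figure D3:**
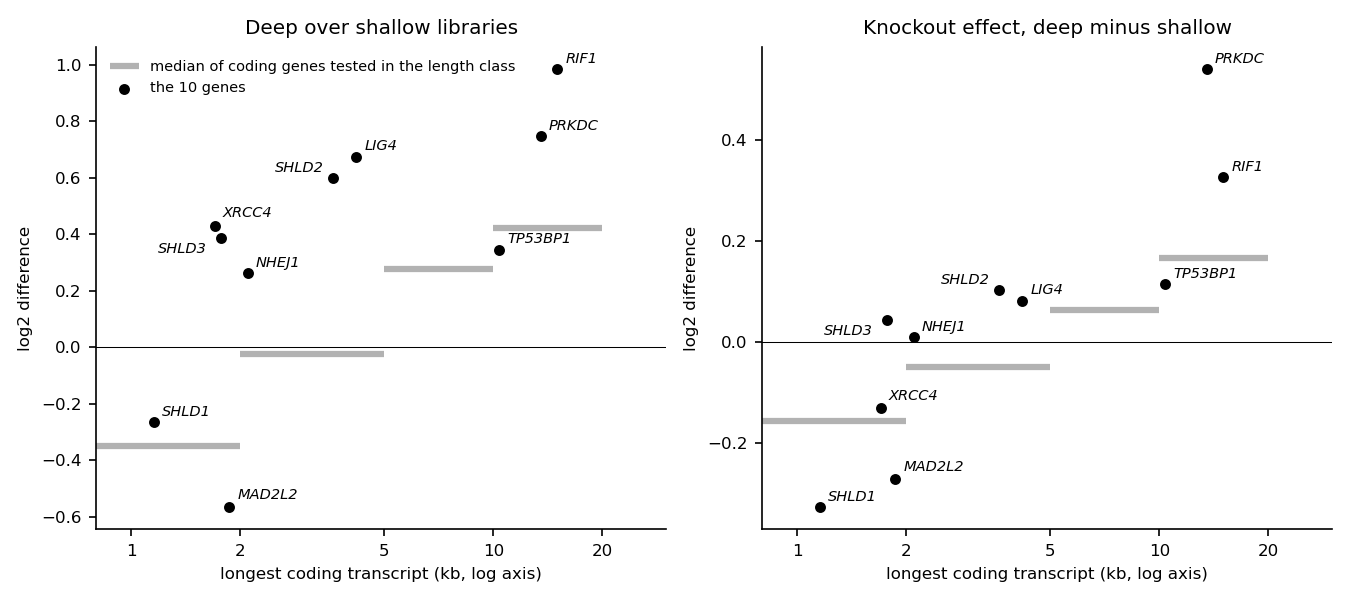
Each of the 10 genes (points) by the length of its longest coding transcript in kb on a log axis, with the log2 difference of deep over shallow libraries (left) and the knockout effect in deep minus shallow libraries (right). Grey bars are medians of all coding genes tested in each length class, rising to 0.42 on the left and 0.17 on the right for the longest class, with RIF1 and PRKDC above them.

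By the annotation, 6 of the genes start beside another coding gene on the opposite strand, and 5 were set against that neighbour in the same library. DRAXIN, which starts 79 bases from MAD2L2, did not pass the filter on low counts and was left out. The pairs were taken from the annotation after values had been seen, and they share a starting region. By the annotation GLUD1 also overlaps SHLD2 and TMEM167A overlaps XRCC4, so reads of these pairs may be shared. TP53BP1 starts 230 bases from MAP1A, which encodes a microtubule protein, and the pair moved in opposite directions. MAP1A had 93.4 ± 17.98 CPM in knockout and 37.5 ± 5.74 CPM in parental libraries (SD, n = 5 each), a log2 fold change of 1.32 (edgeR adjusted p = 7.42e-05). The log2 ratio of TP53BP1 to MAP1A was -1.14 ± 0.10 in knockout and 0.69 ± 0.13 in parental libraries (SD, n = 5 each), and the ranges did not overlap.

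LIG4 starts 11 bases from ABHD13, a predicted hydrolase gene that did not pass the test. ABHD13 had 10.2 ± 2.23 CPM in knockout and 10.6 ± 2.36 CPM in parental libraries (SD, n = 5 each), a log2 fold change of -0.05 (95% interval -0.46 to 0.35, edgeR adjusted p = 0.867). The log2 ratio of LIG4 to ABHD13 was 0.18 ± 0.11 in knockout and 0.80 ± 0.08 in parental libraries (SD, n = 5 each), again without overlap. The ratio difference was -0.62, with measured log2 fold changes of -0.66 for LIG4 and -0.05 for ABHD13. With the chromosome 13 median removed, ABHD13 stood at 0.36 (edgeR adjusted p = 0.169) and LIG4 at -0.24 (0.447). Removing that median shifts both genes alike and so cancels in their ratio. XRCC4 starts 365 bases from TMEM167A, and TMEM167A had a log2 fold change of 0.16, which did not pass (edgeR adjusted p = 0.499) but did with the block (edgeR adjusted p = 0.00217). The log2 ratio of XRCC4 to TMEM167A was -2.58 ± 0.09 in knockout and -2.38 ± 0.04 in parental libraries (SD, n = 5 each). For these 3 pairs the exact two-sided permutation p was 0.00794, or 0.0132 adjusted over the 5 ratios. How many such ratios part over all genes was not computed. TP53BP1 and MAP1A had each been called singly, so their ratio adds no separate evidence.

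SHLD2 and its neighbour GLUD1, 705 bases away, were both lower. GLUD1, which encodes glutamate dehydrogenase, had a log2 fold change of -0.35 (edgeR adjusted p = 0.000435), and the log2 ratio of SHLD2 to GLUD1 differed by -0.18 between genotypes (exact permutation p = 0.413, adjusted 0.516). That test pools the depths: the ratio was lower in the knockout in 3 of 3 shallow and 2 of 2 deep pairs. It ran from -3.30 to -3.25 in shallow knockout and from -3.09 to -2.99 in shallow parental libraries, and from -2.67 to -2.60 in deep knockout and from -2.56 to -2.55 in deep parental libraries. PRKDC starts 2 bases from MCM4, a replicative helicase subunit. MCM4 had log2 fold changes of -0.21 in shallow and -0.19 in deep libraries, while those of PRKDC were -0.48 and 0.06. The log2 ratio of PRKDC to MCM4 differed by -0.06 over all libraries (exact permutation p = 0.746), which averages opposite differences. In shallow libraries it ran from -0.17 to -0.13 in the knockout, below 0.06 to 0.18 in parental cells. In deep libraries it was 0.53 and 0.66 in the knockout, above 0.36 and 0.33 in parental cells.

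**Figure D4:**
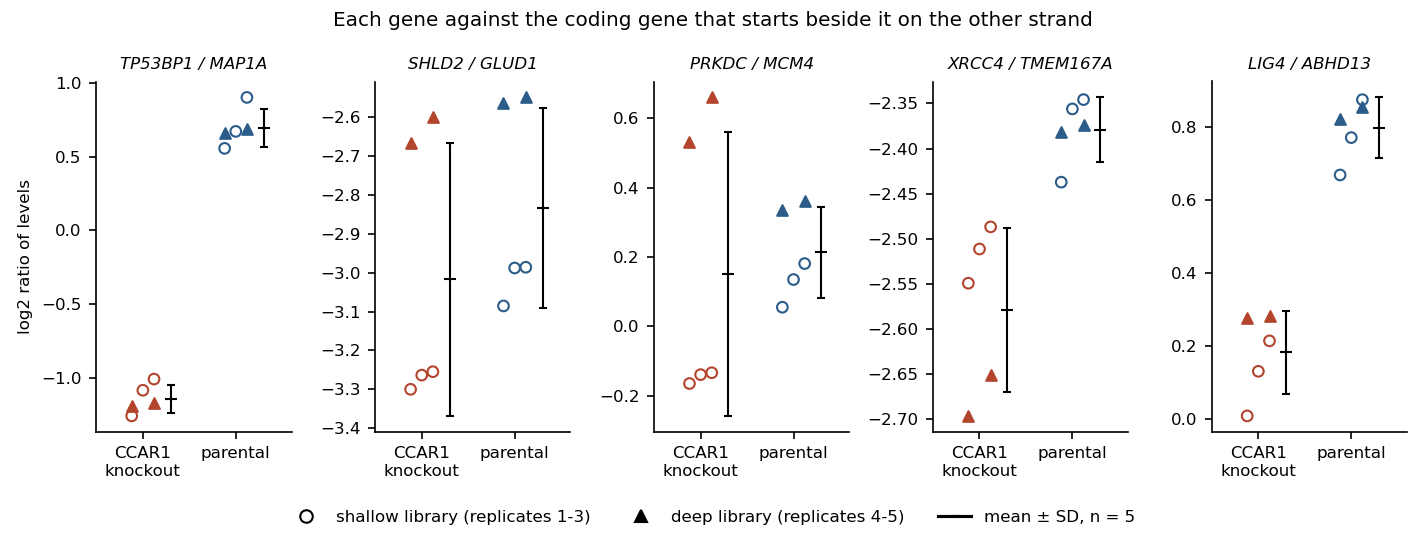
Log2 ratio of each gene's level to that of the coding gene starting beside it on the other strand, by library, with CCAR1 knockout left of parental, open circles for shallow and triangles for deep libraries, and bars for mean ± SD (n = 5). Each panel has its own axis. The knockout and parental libraries are apart for TP53BP1, XRCC4 and LIG4 and overlap for SHLD2 and PRKDC, whose shallow and deep libraries are each apart.

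Around the 10 genes, 54 further genes of the pathway were tested and 19 were called, 3 higher and 16 lower, with 38 called under the replicate block. These counts stand beside the 36.6% of all genes called without the block (16.9% lower, 19.7% higher) and 61.2% with it, so that 19 of 54 is near the share of all genes. The recruitment list held 15 genes that act on 53BP1 binding to chromatin, some promoting it and some limiting it. Of these, 4 fell, none rose and 11 did not pass, with a median log2 fold change of -0.11. MDC1, which reads phosphorylated H2AX, averaged 57.2 ± 4.52 CPM in knockout and 75.8 ± 1.17 CPM in parental libraries (SD, n = 5 each, log2 fold change -0.40, edgeR adjusted p = 0.000630). The ubiquitin ligase RNF8 fell by 0.43 on the log2 scale (edgeR adjusted p = 0.000332), its partner HERC2 by 0.22 (0.0409) and the histone methyltransferase NSD2 by 0.38 (0.00150). With the medians of their chromosomes removed, MDC1 (edgeR adjusted p = 0.378) and RNF8 (0.225), both on chromosome 6 with a median of -0.32, were no longer called, and HERC2 and NSD2 were.

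Of 14 effectors that act with 53BP1, RIF1 and shieldin, 5 fell, 2 rose and 7 did not pass, with a median log2 fold change of -0.17. PAXIP1, which encodes PTIP, a direct 53BP1 partner, averaged 19.4 ± 1.86 CPM in knockout and 33.6 ± 3.80 CPM in parental libraries (SD, n = 5 each). Its log2 fold change was -0.79 ± 0.10 (edgeR adjusted p = 0.000105), and -0.49 once the chromosome 7 median was taken out (edgeR adjusted p = 0.00247). Of the CST complex, which fills in trimmed ends with polymerase alpha, CTC1 fell by 0.28 on the log2 scale (edgeR adjusted p = 0.00350) and STN1 rose by 0.29 (0.00322). CTC1 lies on chromosome 17, whose median was -0.28, and stood at 0.0046 with it removed (edgeR adjusted p = 0.969). ASTE1, a nuclease of the shieldin pathway, rose by 0.34 (edgeR adjusted p = 0.0438), and did not pass with its chromosome median removed (0.0715). The other 3 that fell, named after their values were seen, were PRIM2 and POLA2 of polymerase alpha-primase and the phosphatase gene PPP1CC.

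Of 6 partners of REV7, 1 fell and 5 did not pass, with a median log2 fold change of -0.25. The one that fell was MAD2L1BP, which encodes p31comet, a protein that with TRIP13 opens REV7. It averaged 11.5 ± 1.15 CPM in knockout and 16.4 ± 0.831 CPM in parental libraries (SD, n = 5 each, edgeR adjusted p = 0.000562), and it was not called with the chromosome 6 median removed (edgeR adjusted p = 0.0892).

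Among 13 further end joining genes tested of 14, 3 fell, none rose and 10 did not pass, with a median log2 fold change of -0.14. The Ku genes were among those that did not pass. XRCC5 had 474 ± 82.2 CPM in knockout and 523 ± 86.5 CPM in parental libraries (SD, n = 5 each, edgeR adjusted p = 0.494), although the block called it (edgeR adjusted p = 0.00639). XRCC6 had 609 ± 26.8 CPM in knockout and 642 ± 45.3 CPM in parental libraries (SD, n = 5 each, edgeR adjusted p = 0.394). DCLRE1C, which encodes the hairpin-opening nuclease Artemis, fell by 0.61 on the log2 scale (edgeR adjusted p = 0.0300), CYREN, a modulator of Ku, by 0.45 (0.000305) and TDP2, which clears blocked ends, by 0.34 (0.00198). None of these 3 was called with the median of its chromosome removed (edgeR adjusted p = 0.113, 0.102 and 0.850).

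Of 6 genes of alternative end joining, 3 fell, 1 rose and 2 did not pass, with a median log2 fold change of -0.26. DNA ligase III (LIG3) averaged 27.8 ± 1.98 CPM in knockout and 41.6 ± 2.95 CPM in parental libraries (SD, n = 5 each), a log2 fold change of -0.58 (edgeR adjusted p = 0.000134). PARP1 fell by 0.29 on the log2 scale (edgeR adjusted p = 0.00156), the flap nuclease FEN1 fell by 0.22 (0.0496) and XRCC1, the partner of LIG3, rose by 0.36 (0.0248). LIG3, PARP1 and FEN1 kept their calls with chromosome medians removed, and XRCC1 did not (edgeR adjusted p = 0.229).

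**Figure D5:**
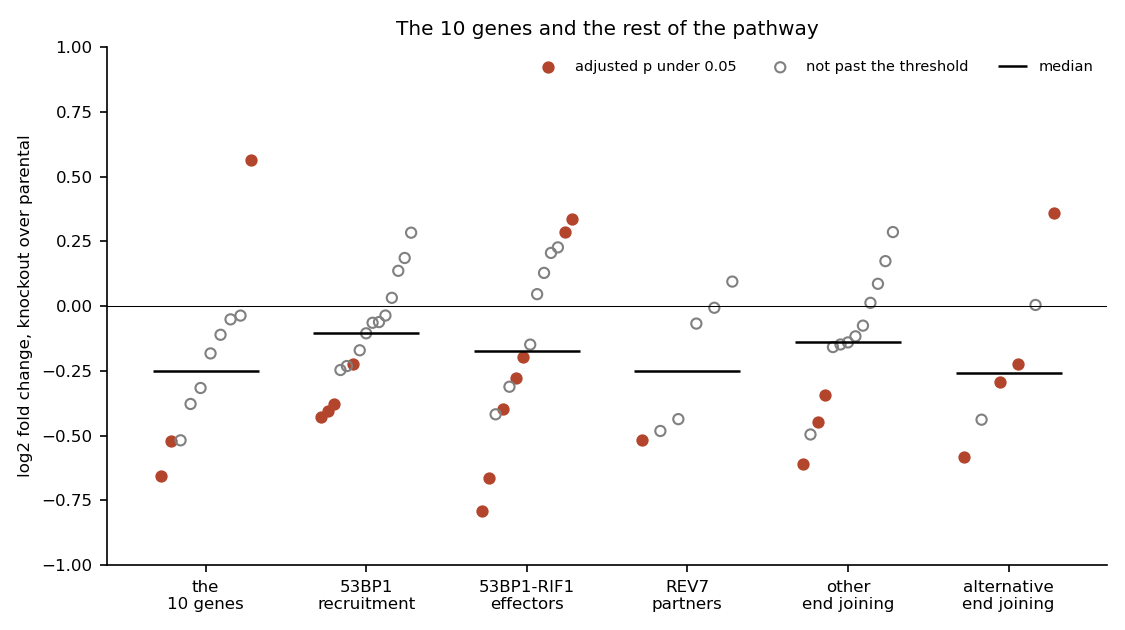
Log2 fold change of CCAR1 knockout over parental libraries for the 10 genes and for 5 lists of the surrounding pathway, with filled points past an adjusted p of 0.05 in edgeR's quasi-likelihood test, open points not past it and a bar at each median. The medians run from -0.26 for alternative end joining to -0.11 for 53BP1 recruitment, with SHLD1 the highest point of all at 0.57.

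Of 8 proliferation genes, 3 fell, none rose and 5 did not pass, with a median log2 fold change of -0.34. The test called 36.6% of all genes, so 3 of 8 is near that share. Of those that did not pass, MCM2 was at 0.03 (edgeR adjusted p = 0.863) and CCNB1 at 0.09 (0.162). TOP2A, CCNA2 and CDK1 were at -0.34, -0.25 and -0.35. MKI67 averaged 544 ± 163 CPM in knockout and 795 ± 106 CPM in parental libraries (SD, n = 5 each, edgeR adjusted p = 0.0434), and was not called with the chromosome 10 median removed (edgeR adjusted p = 0.165). PCNA averaged 246 ± 10.7 CPM in knockout and 329 ± 19.5 CPM in parental libraries (edgeR adjusted p = 0.000266). The third was the replicative helicase gene MCM3, named after its values were seen, with 176 ± 5.11 CPM in knockout and 289 ± 6.28 CPM in parental libraries (SD, n = 5 each, edgeR adjusted p = 1.35e-06). PCNA and MCM3 kept their calls with chromosome medians removed. The part of these genes in the values of the 10 genes was not tested, and fewer cycling cells and less RNA per cell cannot be told apart in these bulk libraries.

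Over the 10 libraries, the genes whose log2 CPM followed TP53BP1 most closely among 9384 genes with at least 10 CPM included ARHGAP21 (Pearson r = 0.998) and MID1 (0.997). Their log2 fold changes were -0.84 and -0.72. The libraries differ in both genotype and depth, which these genes follow.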

How the data were processed

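The authors deposited 1 table of estimated counts (expected counts), genes by libraries, made with kallisto 0.48.0 and hg38, per the submitters' processing notes. The sources used here do not give the annotation release, how transcripts were joined to genes or whether strand was read. Per the labels' protocols, mRNA was enriched on oligo d(T) beads and libraries were made with NEBNext Ultra II and sequenced on a NovaSeq. Kallisto divides reads shared by transcripts, so overlapping genes and copies are uncertain.

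Counts were rounded, genes kept by edgeR's filterByExpr, libraries scaled by TMM, and a robust quasi-likelihood model with genotype as its term was run (edgeR 4.0.16, R 4.3.3, limma 3.58.1). CPM are counts per 1e6 of the scaled library size. Gene positions and lengths are from GENCODE for GRCh38, matched for 92.8% of the table's genes. The genes and lists were chosen with earlier results of these data known. Named were the 10 genes, CCAR1, the Ku genes, MKI67, PCNA, up to 4 called genes with the smallest adjusted p of each list (2 each way if possible) and the 3 genes most like the called member with the smallest adjusted p. A gene named by this rule is not reported here. Genes overlapping a member or starting beside it were added after values were seen.

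Same-numbered libraries deviated together from their group means (r = 0.586 to 0.898 across genes), as did other numbers of the same depth (0.595 to 0.900), while different depths correlated at -0.775 to -0.726. By this measure same numbers were no closer than other numbers of the same depth. The labels do not say that the numbers pair the libraries, so the block and the same-numbered pairs may carry no more than depth class. The depth classes were found in the data, and the labels name no batch. edgeR's common coefficient of variation fell to 0.0698 with a depth term, against 0.310 without it. Library pairs of 1 genotype and depth differed beyond sampling noise (6.88 to 25.9 chi-square units per gene), and none were merged.

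On simulated counts of 18979 genes for the knockout against parental comparison, with 50 genes changed at each size, 2% of 1.2-fold, 6% of 1.5-fold, 54% of 2-fold and 86% of 4-fold changes were recovered, and 0 unchanged genes were called. Under the block these were 42%, 58%, 88% and 96%, and 14 unchanged genes were called. The simulation changed a far smaller share of genes than the 36.6% called in these data. That share enters the adjustment over all genes, so recovery in these data may differ. Alternatives were DESeq2 1.42.0 or its size factors, library size only, no filter or 1 CPM in 5 libraries, limma-voom, no robust step, a replicate block, a depth term, shallow or deep libraries alone, deep libraries thinned to 52.6 M counts (M, 1e6), chromosome medians removed, and each library left out. Chromosome medians with depth as a term was chosen after seeing the data.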

Additional observations from a re-analysis of the deposited data

Results flagged for a closer look

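The knockout effect on PRKDC differed between the deep and the shallow libraries by 0.54 on the log2 scale (95% interval 0.37 to 0.71), by a test of the difference itself (edgeR quasi-likelihood interaction, adjusted p = 0.0163). PRKDC was lower in 3 of 3 shallow pairs, at -0.48, and at 0.06 in the deep libraries. The deep libraries hold 2 replicates of each genotype. Muscle, liver and erythroid transcripts and transcript length move with depth class in these libraries, and their part in this difference was not tested.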

How the results depend on the processing

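Of the 10 genes, 3 passed the threshold (36.6% of all genes called), and 2 to 4 did when each library was left out in turn. The replicate block gave 7 (61.2% of all genes called) and depth as a term 8 (64.0% of all genes called). The shallow libraries alone gave 6 (52.7%) and the deep libraries alone 9 (57.0%). Chromosome medians removed with depth as a term gave 7 (61.8% of all genes called). Chromosome medians removed without depth left 2, TP53BP1 and SHLD1 (33.5% of all genes called). Of the surrounding pathway genes 19 passed, 14 to 18 with each library left out, 38 with the replicate block, 40 with depth as a term, 33 in shallow and 46 in deep libraries alone, 11 with chromosome medians removed and 36 with depth as a term added to that. These counts stand beside the same shares of all genes, which are not given for the fits with a library left out. The exact permutation test had 2 members under 0.05 over all libraries and 7 within depth. Its share over all genes was not computed. TP53BP1 and SHLD1 kept direction and call in all 24 alternatives. LIG4 lost its call in 8: besides the 5 left-out libraries and the chromosome median, these were library size only (edgeR adjusted p = 0.0701) and no filter on low counts (0.0586). Small differences changed sign. MAD2L2 was at 0.010 with library size only, 0.040 in shallow libraries and -0.13 to 0.061 with each library left out. XRCC4 was at 0.010 with library size only, 0.0034 in shallow libraries and -0.13 to 0.027 with each library left out. PRKDC was at 0.055 in deep libraries. CCAR1 missed the threshold with library size only (edgeR adjusted p = 0.0525), chromosome medians removed (0.121) and without parental replicate 5. The cause was not tested. Depth limits SHLD1 and SHLD3, which had as few as 71 and 65 counts in a shallow library.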
